A study of Mus musculus with 6 samples.

Results

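The comparison described here set macrophages deficient in the kinase IRAK2 against wild-type macrophages after the same exposure to R848. Both groups were bone marrow-derived macrophages of female mice of strain 129/BL6, differentiated over 5 days in L929-conditioned medium and then exposed for 2 h to R848 at 1 µg/ml. A gene entered the comparison when its probe had a detection p-value under 0.01 on at least 1 of both arrays, which 6646 of the 16593 named genes on the array did. The rule used detection alone and no difference between the genotypes. The study's other groups, wild-type and IRAK2-deficient cells left untreated or exposed for 2 h to CpG B at 1 µg/ml, served as reference conditions, and each of the 6 groups had 1 array. The sources used here do not give how the deletion was made or whether cells of several mice were pooled.

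R848 is an imidazoquinoline that mouse cells sense through the endosomal receptor TLR7, and CpG B is an oligonucleotide sensed through TLR9. Both receptors pass the signal through the adaptor MyD88 to a complex of IRAK kinases, and from there through TRAF6 to NF-kB and the MAP kinases. IRAK2 joins this complex downstream of IRAK4 and is known in macrophages for prolonging the signal and for stabilising and promoting translation of inflammatory messenger RNAs. The products include cytokines, chemokines and enzymes of inflammation, and also inhibitors that switch the same pathway off again.

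After R848, 311 of 6646 genes (4.68%) were past a 2-fold difference between the genotypes, 146 (2.2%) higher and 165 (2.48%) lower in the knockout. The lower genes included many inflammatory mediators. The endothelin gene Edn1 was 11.2-fold and the chemerin-binding receptor gene Ccrl2 7.93-fold lower, and the guanylate-binding protein gene Gbp5, the interleukin-27 subunit gene Il27 and the cytokine gene Il19, all below background in the knockout, were at least 9.67-fold, 6.25-fold and 5.84-fold lower. Of the 311 genes 93 were below background on 1 of both arrays, 52 of the higher and 41 of the lower ones, so that their size is only a bound. With these genes at their bound, 251 remain past 2-fold, 108 higher and 143 lower. The 311 genes fell mainly into 2 patterns. For 206 of them (66.2%) the difference was not 2-fold or more in the same direction in either untreated or CpG B arrays. Of the 121 lower genes among these, 62 were detected in untreated cells, 102 after CpG B and 61 in both. In a condition where a gene was not detected, a small difference only reflects values in the background. Of the 85 higher genes 83 were detected in both. For 64 genes (20.6%) the difference was 2-fold or more in the same direction in both. The opposite direction was past 2-fold in untreated or CpG B cells for 5 of the 311. In untreated cells 145 of 6724 genes (2.16%) were past 2-fold, 81 higher (1.2%) and 64 lower (0.952%), and after CpG B 190 of 6967 (2.73%), 115 higher (1.65%) and 75 lower (1.08%). All differences are knockout minus wild type on the log2 scale, from normalized intensities with an offset of 16, which understates the change of dim genes. The median over all tested genes was 0.02, with quartiles at -0.19 and 0.23.

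With 1 array a side these differences carry no p-value of their own, and a difference between genotypes cannot be told apart from one between the 2 cultures. Tests came from 3 limma fits over the 7149 genes with a detected probe on any of the 6 arrays, at a Benjamini-Hochberg adjusted p under 0.05. The first took the spread from the untreated cells, for which a second array per genotype was recovered from the authors' processed values. It called 232 genes (3.25%) after R848, 113 higher (1.58%) and 119 lower (1.66%), and its spread may be technical. The second, the R848-specific difference, compared knockout minus wild type after R848 with the mean of the same difference in untreated and CpG B cells, and called 50 genes (0.699%), 11 higher (0.154%) and 39 lower (0.546%). The third averaged the genotype effect over all 3 conditions and called 243 genes (3.4%), 126 higher (1.76%) and 117 lower (1.64%). Of the 311 genes past 2-fold, the first fit called 181, the second 47 and the third 98. Between the untreated arrays of 1 genotype, 36 of 7149 genes (0.504%) in wild type and 21 (0.294%) in the knockout were past 2-fold. In what follows, a gene is said to have been called after R848 when the first fit called it. Of the 50 genes called for the R848-specific difference, 32 were also called after R848. Dusp1, Socs1, Socs3, Gadd45b, Ch25h, Slco4a1 and Cd69 were among those that were not. The p-values after R848 belong to that fit's own estimates, which can differ from the printed differences.

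**Figure D1:**
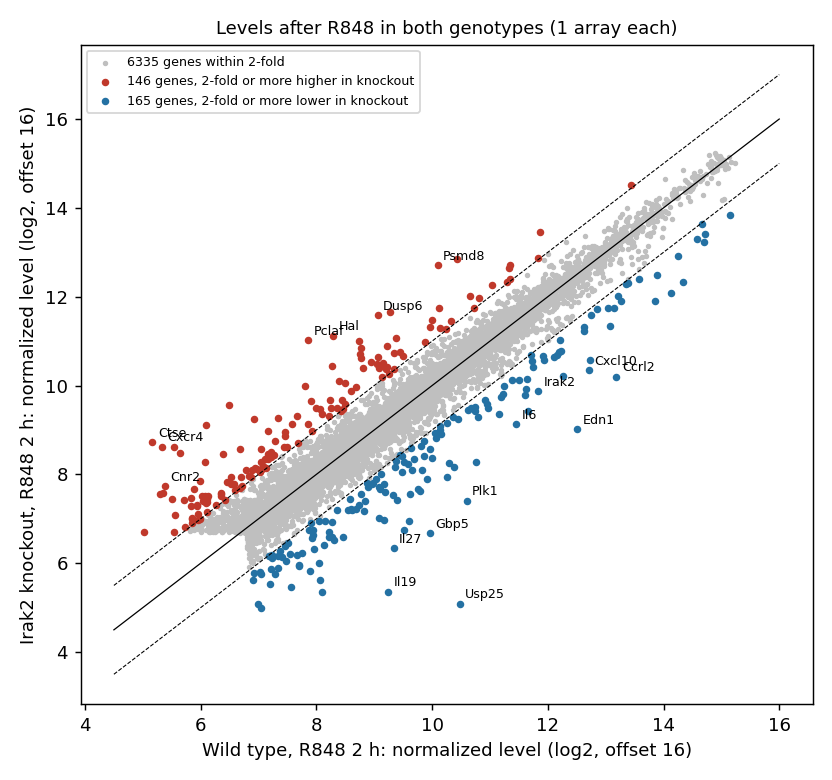
Normalized level of each of the 6646 tested genes after R848 in wild type (x axis) and in the Irak2 knockout (y axis), on the log2 scale with an offset of 16, from 1 array each. The solid line marks equal levels and the dashed lines a 2-fold difference. Of the coloured genes 165 lie below the lower dashed line, among them Il19 and Edn1, and 146 above the upper one, among them Ctse and Dusp6.

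The transcript of the deleted gene was still detected. The first Irak2 probe read 534 intensity units in untreated wild-type cells, 3695 after R848 and 2618 after CpG B, against 378, 835 and 622 in the knockout, and the other probe read 2594 in wild type and 641 in the knockout after R848. Irak2 was thus lower in the knockout after R848 at both probes, by log2 differences of -1.97 and -1.88, and was called after R848 (adjusted p = 0.00725). The sources used here do not say whether either probe lies in the deleted part, and these values therefore do not check the genotype labels. Among the 20 genes on each side of Irak2 in the RefSeq gene order, 19 were tested. Of these the ubiquitin ligase subunit Vhl was higher by 1.84, while the transcription cofactor Vgll4 and the semaphorin receptor Plxnd1, below background in wild type, were at least 1.43-fold and 1.27-fold higher. None was lower by 2-fold.

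The other components of the receptor pathway differed little. Of 32 tested genes of TLR and IRAK signalling, 1 was higher by 2-fold or more and 2 were lower, with a median of -0.04 beside 0.02 for all genes. The lower ones were Irak2 itself and Map3k8, the kinase TPL2 that carries the signal to ERK. In wild type Map3k8 had log2 levels of 7.76 (untreated), 11.60 (R848) and 9.91 (CpG B), against 7.94, 9.78 and 9.84 in the knockout. In the knockout its level after R848 was close to that after CpG B, and both the test after R848 (adjusted p = 0.0336) and that of the R848-specific difference (-1.87, adjusted p = 0.03) called it. Tlr13, a receptor for bacterial ribosomal RNA, was the higher one (1.11, adjusted p = 0.0468 after R848). The adaptor Myd88 had a difference of -0.74 and was not called (adjusted p = 0.084). Of 13 NF-kB, IRF and STAT factors, the NF-kB subunit Rel (-1.43, adjusted p = 0.0317) and the interferon-response factor Irf1 (-1.36, adjusted p = 0.018) were lower by 2-fold or more and called. Of 14 MAP kinases and translation kinases none was lower by 2-fold, and the cap-binding factor Eif4e (1.06, adjusted p = 0.0327) was the 1 that was higher.

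Inflammatory cytokines formed the list with the lowest median. Of 15 tested members 11 were lower by 2-fold or more and none higher, with a median of -1.48 after R848 beside 0.01 in untreated and 0.09 in CpG B cells. The fit after R848 called 9 of them as lower, against 1.66% of all genes in that direction, and the R848-specific fit called 5, against 0.546% of all genes. The lists were chosen with results of these data known, so these counts describe them and are not independent evidence.

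Il19, a cytokine of the interleukin-10 family, was detected on 1 of the 6 arrays. Its log2 level was 9.24 in wild type after R848, and 4.92 untreated and 5.19 after CpG B. Knockout cells had 4.84 untreated, 5.36 with R848 and 5.07 with CpG B, all below background. The knockout level after R848 is thus only a bound, and Il19 was at least 5.84-fold lower there than in wild type. The R848-specific fit called it (fitted difference -3.78, SE 0.22, adjusted p = 0.00629).

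Il27 codes for a subunit of interleukin-27, which shapes T-cell responses. It had levels of 5.15, 9.33 and 6.51 in wild type (untreated, R848, CpG B) and of 5.16, 6.34 and 6.91 in the knockout. The R848 level of the knockout was not well above background, which makes the gene at least 6.25-fold lower (R848-specific difference -3.20, SE 0.26, adjusted p = 0.012). Il10, the main anti-inflammatory cytokine of macrophages, had levels of 6.28, 10.75 and 8.76 in wild type and of 5.78, 8.29 and 8.47 in the knockout. Il6, the fever and acute-phase cytokine, had 5.10, 11.45 and 8.71 in wild type, against 5.09, 9.13 and 8.80 in the knockout. Both genes were below background in untreated cells of either genotype. After CpG B the genotypes were close to each other, and after R848 the knockout was 5.52-fold lower for Il10 and 5.00-fold lower for Il6. Their R848-specific differences were -2.07 and -2.36, both at an adjusted p of 0.0239.

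Il1b, the interleukin-1 beta gene, was higher in the knockout after CpG B (0.76) and lower after R848 (-1.48). In untreated cells it was below background in both genotypes, so the difference of 0.58 there is not a measured one. Il1b levels were 5.07, 14.71 and 12.34 in wild type, against 5.65, 13.23 and 13.10 in the knockout. The R848-specific fit called it (-2.15, adjusted p = 0.0239), while the fit after R848 did not (adjusted p = 0.11). Il1a, the other interleukin-1 gene, had differences of 0.04, -1.37 and 1.78 in untreated, R848 and CpG B cells. Tnf, the tumour necrosis factor gene, had the smallest difference of the cytokines past 2-fold (-1.02, adjusted p = 0.0456 after R848), with levels of 14.66 in wild type and 13.64 in the knockout. Il15 (-2.23), which sustains NK and T cells, was called after R848, where its level was 11.66 in wild type and 9.44 in the knockout. The interferon-gamma-inducing cytokine gene Il18 differed under every condition, by -1.58 untreated, -2.21 after R848 and -1.28 after CpG B, and was called for the genotype effect (adjusted p = 0.0132).

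**Figure D2:**
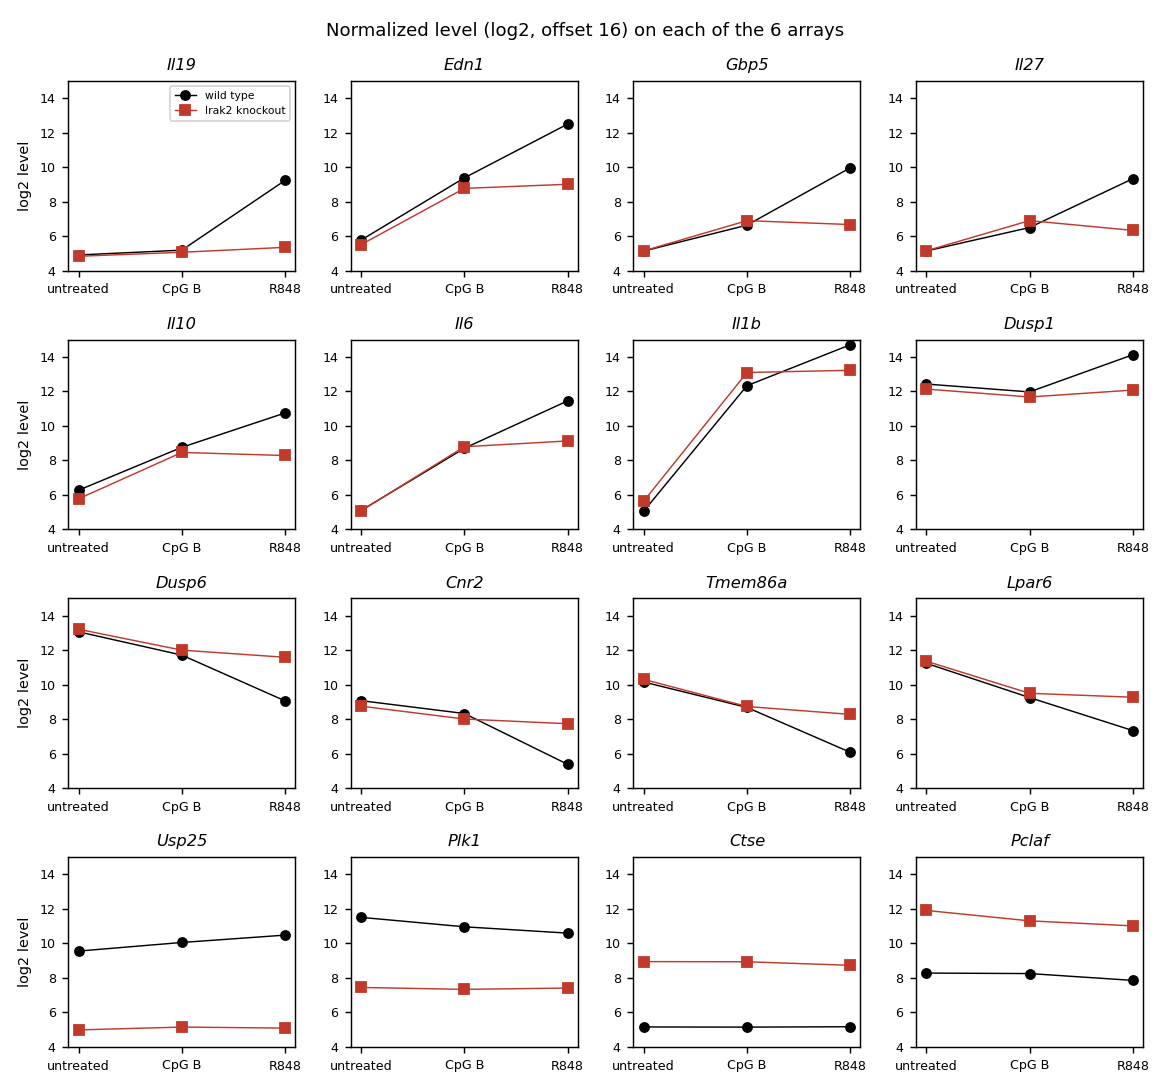
Normalized log2 level (offset 16) of 16 genes on each of the 6 arrays, with wild type in black circles and the Irak2 knockout in red squares, 1 array per point. In the panels from Il19 to Dusp1 the black point lies above the red one after R848, from Dusp6 to Lpar6 below it, and in the Usp25, Plk1, Ctse and Pclaf panels the genotypes are apart in all 3 conditions.

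Chemokines were lower in smaller number. Of 15 tested, 6 were lower by 2-fold or more and none higher, with a median of -0.46. Those called after R848 were both ligands that recruit T cells. Cxcl10 had levels of 7.66, 12.71 and 10.68 in wild type, and the knockout differed from them by -1.66 untreated, -2.37 with R848 and 0.21 with CpG B (adjusted p = 0.0104 after R848), and Ccl5 was 14.34 in wild type and 12.32 in the knockout after R848 (-2.02, adjusted p = 0.00554). The interferon-gamma-inducible Cxcl9 was called for the R848-specific difference (-1.63, adjusted p = 0.0414). The neutrophil chemoattractant Cxcl1 differed by nearly the same amount in each condition, -1.41 untreated, -1.32 after R848 and -1.21 after CpG B, and was called for the genotype effect (adjusted p = 0.00373). Its companion Cxcl2 (-1.28, -1.27 and -0.59, adjusted p = 0.0347) was called there as well. Ccl2, the monocyte chemoattractant, had positive differences throughout (1.09, 0.64 and 0.84, adjusted p = 0.0263 for the genotype effect).

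Genes that restrain the pathway were lower together with its products. Of 25 tested negative feedback regulators 10 were lower by 2-fold or more and 1 was higher, with a median of -0.82, and the R848-specific fit called 6 as lower and 1 as higher, against 0.546% and 0.154% of all genes. With 1 member at its bound the median was -0.79 and 9 were lower. Cish, an inhibitor of cytokine-receptor signalling to STAT5, had levels of 5.16, 10.26 and 6.29 in wild type and of 5.25, 7.94 and 7.50 in the knockout (R848-specific difference -2.98, adjusted p = 0.0481). Socs1 (-1.78, adjusted p = 0.0309) and Socs3 (-1.68, adjusted p = 0.0396), which act on JAK kinases, were called in the same direction. The ribonuclease gene Zc3h12a (-1.50, adjusted p = 0.0497), whose product degrades inflammatory messenger RNAs, was also called.

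The dual-specificity phosphatases, which switch off MAP kinases, differed in direction. Dusp1, which acts mainly on p38 and JNK, had wild-type levels of 12.43, 14.13 and 11.97 (untreated, R848, CpG B), against 12.14, 12.08 and 11.68 in the knockout. In wild type the R848 level stood above both other conditions, in the knockout it did not, and the R848-specific difference was -1.75 (adjusted p = 0.03). Dusp1 was not called after R848. Dusp2, a phosphatase induced in activated leukocytes, was 10.29 in wild type and 8.25 in the knockout after R848 (R848-specific difference -2.55, adjusted p = 0.03). Dusp6, which is selective for ERK, went the other way, with levels of 13.06, 9.06 and 11.71 in wild type and of 13.21, 11.59 and 12.00 in the knockout. The response to R848 was -4.00 in wild type and -1.62 in the knockout, and the R848-specific difference was 2.31 (adjusted p = 0.0239). A second Dusp6 probe differed by 3.06 after R848. The inhibitors of NF-kB showed smaller differences, -1.40 for the ubiquitin-editing enzyme Tnfaip3 (adjusted p = 0.0431 after R848), -1.21 for Nfkbib (adjusted p = 0.0287) and -0.79 for Nfkbia (adjusted p = 0.1, not called).

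IRAK2 is known for an effect on the stability of messenger RNAs with AU-rich elements, which shorten the life of many cytokine transcripts. Of 18 tested transcripts of that list, 10 were lower by 2-fold or more and 1 was higher, with a median of -1.14. The list shares members with the cytokine, chemokine and feedback lists, and arrays of levels do not separate synthesis from decay. Members outside those lists differed both ways, with -1.47 for the prostaglandin synthase Ptgs2 (adjusted p = 0.012 after R848), 1.32 for the urokinase Plau (adjusted p = 0.0269) and 0.79 for the immediate early factor Fos (adjusted p = 0.659).

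Interferon-related genes were lower in the largest number. Of 31 tested 17 were lower by 2-fold or more and 1 was higher, with a median of -1.16 after R848, -0.30 untreated and 0.17 after CpG B. The fit after R848 called 10 as lower, against 1.66% of all genes. With 2 members at their bound the median was -1.08 and 16 were lower. Gbp5, a guanylate-binding protein that promotes inflammasome assembly, had levels of 5.14, 9.97 and 6.64 in wild type and of 5.15, 6.68 and 6.90 in the knockout, where the R848 level was not well above background, so it was at least 9.67-fold lower. Its R848-specific difference was -3.42 (SE 0.24, adjusted p = 0.00926). Its relatives Gbp3 (-1.47) and Gbp2 (-1.38) were called after R848 too, at adjusted p of 0.0369 and 0.0177.

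Some interferon-stimulated genes were already lower in untreated knockout cells. The antiviral gene Rsad2 differed by -1.41, -1.34 and -0.09 in untreated, R848 and CpG B cells, the nucleotide kinase Cmpk2 by -1.26, -1.16 and 0.28, and the RNA-sensing relative Oasl1 by -1.67, -1.72 and -0.39. The ubiquitin-like modifier Isg15 (-0.72, -1.45 and 0.34) and the antiviral GTPase Mx1 (0.07, -1.38 and 0.55) had their lowest value after R848. The 1 higher member, the membrane protein Ifitm1, had differences of 3.58 without stimulus, 2.19 with R848 and 3.46 with CpG B and was called for the genotype effect (adjusted p = 0.00671).

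Effector genes behaved like the cytokines at their lower end. Of 21 effector enzymes and acute-phase genes 7 were lower by 2-fold or more and 2 higher, with a median of -0.56. Edn1, which codes for the vasoconstrictor peptide endothelin-1, had levels of 5.78, 12.50 and 9.39 in wild type and of 5.52, 9.01 and 8.78 in the knockout. It was 11.2-fold lower in the knockout after R848, and its R848-specific difference was -3.05 (SE 0.25, adjusted p = 0.012). The copper-binding ferroxidase gene Cp was 9.39 in wild type and 7.41 in the knockout after R848 (R848-specific difference -2.15, adjusted p = 0.0284). Ch25h, which makes the antiviral oxysterol 25-hydroxycholesterol, was higher in the knockout untreated (1.44) and after CpG B (0.85) and lower after R848 (-1.01), with an R848-specific difference of -2.15 (adjusted p = 0.0416). The inducible nitric oxide synthase Nos2 was 9.82 in wild type and 8.10 in the knockout after R848, and neither fit called it (adjusted p = 0.211 after R848 and 0.0802 for the R848-specific difference).

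Genes of other functions were called as well. Mt2, a metal-binding metallothionein, was 9.51 in wild type and 6.76 in the knockout after R848 (R848-specific difference -2.21, adjusted p = 0.0239). Cfb, the complement factor B gene, was 9.80 and 7.62 (-2.29, adjusted p = 0.0239), and the MYC relative Mycl was 9.08 and 7.01 (-2.13, adjusted p = 0.0239). The ion-channel gene Calhm6 (-2.31, adjusted p = 0.0438), the hyaluronan synthase Has1 (-2.10, adjusted p = 0.0239) and the transcription factor Batf2 (-1.94, adjusted p = 0.0265) were further genes called as lower for R848. Of the costimulatory and adhesion molecules, 3 of 11 were lower by 2-fold or more, the early activation antigen Cd69 (-1.48), Cd40 (-1.21) and Cd83 (-1.17). None of these 3 was called after R848, and of them Cd69 alone was called for the R848-specific difference. Cd80, a ligand of CD28 that was below background in wild type, was at least 1.40-fold higher. Of 10 survival genes 4 were lower by 2-fold or more. Gadd45b, a stress-induced signalling protein, was called for the R848-specific difference (-1.54, adjusted p = 0.0497) and not after R848.

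**Figure D3:**
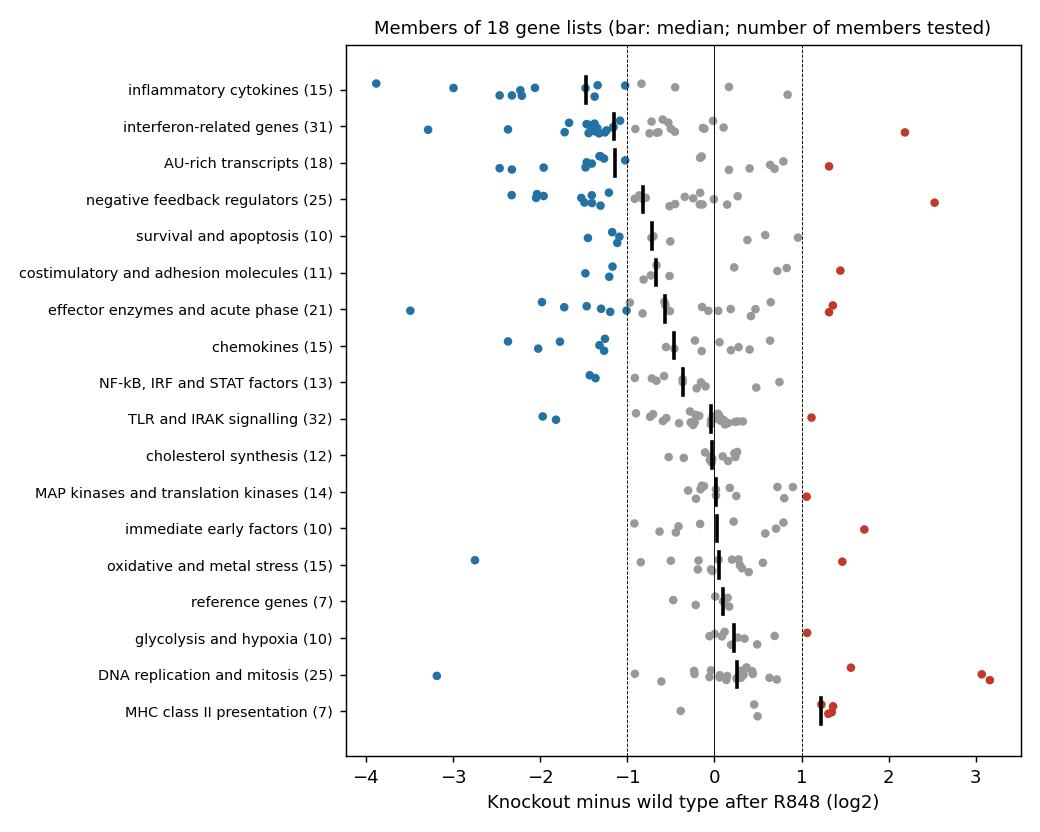
Knockout minus wild type after R848 (log2, x axis) for each tested member of 18 gene lists (y axis, with the number of members tested), where the black bar is the list's median and the dashed lines mark 2-fold. The medians run from -1.48 for the inflammatory cytokines to 1.23 for MHC class II presentation, and 63 distinct members lie at or below -1 and 17 at or above 1.

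The bases upstream of the most reduced R848-induced genes are shown because these genes moved together and NF-kB is the pathway's best-known end point. The sequences are RefSeq promoters of assembly GRCm38.p6, 250 bases before to 50 after the gene's start, 5′ to 3′ on the gene's strand, with each start as listed in that table and capitals marking matches to the NF-kB consensus on either strand. They cover chr1:130940066-130940365 for Il19 (minus strand, a listed start inside the gene's span, which ends at 130945457), chr13:42301226-42301525 for Edn1 (plus), chr3:142496684-142496983 for Gbp5 (plus) and chr9:111057469-111057768 for Ccrl2 (minus, the first of 3 listed starts).
Il19: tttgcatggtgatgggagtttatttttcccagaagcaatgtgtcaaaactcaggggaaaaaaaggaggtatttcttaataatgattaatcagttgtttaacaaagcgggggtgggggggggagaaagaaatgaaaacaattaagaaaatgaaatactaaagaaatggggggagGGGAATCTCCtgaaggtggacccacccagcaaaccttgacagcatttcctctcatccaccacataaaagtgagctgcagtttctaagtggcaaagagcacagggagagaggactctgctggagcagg
Edn1: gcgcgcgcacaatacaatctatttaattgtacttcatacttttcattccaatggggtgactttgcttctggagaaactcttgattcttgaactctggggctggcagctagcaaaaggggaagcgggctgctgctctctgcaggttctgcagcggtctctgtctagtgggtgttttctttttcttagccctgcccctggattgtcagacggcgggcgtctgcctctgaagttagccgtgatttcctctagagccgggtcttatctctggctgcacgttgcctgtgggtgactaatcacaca
Gbp5: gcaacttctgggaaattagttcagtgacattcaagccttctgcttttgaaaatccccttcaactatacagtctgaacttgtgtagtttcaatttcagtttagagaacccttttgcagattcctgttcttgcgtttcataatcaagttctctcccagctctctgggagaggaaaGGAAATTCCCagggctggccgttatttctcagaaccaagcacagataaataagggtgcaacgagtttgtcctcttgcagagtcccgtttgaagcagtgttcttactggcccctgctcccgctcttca
Ccrl2: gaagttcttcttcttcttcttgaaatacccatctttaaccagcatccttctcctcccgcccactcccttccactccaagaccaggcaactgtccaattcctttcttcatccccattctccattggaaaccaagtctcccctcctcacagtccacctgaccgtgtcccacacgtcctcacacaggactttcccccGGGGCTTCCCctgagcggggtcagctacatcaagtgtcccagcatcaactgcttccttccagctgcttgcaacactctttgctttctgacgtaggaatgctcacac
Il19 and Gbp5 each held 1 match, at position -77 from the start, and Ccrl2 held 1 at -56. In Edn1 these letters were not found in this window. Mt2 was chosen by the same rule, and its window, not shown here, held 0 matches. Ccrl2, whose product presents the attractant chemerin on the cell surface, had levels of 7.40, 13.19 and 11.31 in wild type and of 7.05, 10.20 and 9.72 in the knockout, and was called after R848 (-2.99, adjusted p = 0.00469) but not for the R848-specific difference (adjusted p = 0.159).

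The same motif search covered all listed promoters. The NF-kB consensus stood in 8.18% of 27025 promoters and in 554 of the 5520 tested genes with an entry. It stood in 26 of 134 genes lower in the knockout (19.4%) and in 12 of 118 genes that were higher (10.2%). The core of the interferon-stimulated response element (ISRE), searched on both strands, stood in 3.49% of all promoters, 3.37% of the tested genes, 15.7% of the lower genes (21) and 3.39% of the higher genes (4). The STAT palindrome TTCNNNGAA stood in 8.47% of all promoters, 6.99% of the tested, 13.4% of the lower and 5.93% of the higher genes. For the AP-1 motif TGANTCA the shares were 7.93%, 5.05%, 10.4% and 5.08%, and for the CRE TGACGTCA 1.88%, 3.55%, 3.73% and 1.69%. A match is a string of letters in the window and not a binding site, and these shares were not tested.

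The genes lower in the knockout after R848 were set against the response to the other stimulus in wild type. That response uses none of the R848 arrays, but the genes were chosen on them and some were detected there alone, so the shares describe a selected set. Of the 165 genes 64 (38.8%) were higher by 2-fold or more after CpG B than untreated in wild type, against 3.82% of all tested genes, and 3 were lower. Of the 146 genes higher in the knockout, 18 (12.3%) were lower after CpG B in wild type, against 1.1% of all tested genes, and 4 were higher. Over the 165 lower genes the median difference between genotypes was -1.38 after R848, -0.29 untreated and -0.08 after CpG B. Over the 146 higher genes it was 1.31, 0.61 and 0.70.

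The genes called as higher for R848 included a receptor, an enzyme and a growth factor with wild-type levels that were lowest after R848. The wild-type R848 array enters both the genotype difference and the wild-type response, so the levels are given on every array. Cnr2, the cannabinoid receptor of immune cells, had levels of 9.07, 5.38 and 8.33 in wild type and of 8.75, 7.74 and 8.01 in the knockout. Its wild-type level after R848 was below background, which puts the knockout at least 1.91-fold above it (R848-specific difference 2.67, SE 0.22, adjusted p = 0.012). Tmem86a, an enzyme of ether-lipid breakdown, had 10.15, 6.08 and 8.68 in wild type, against 10.30, 8.28 and 8.73 in the knockout (at least 2.78-fold higher, R848-specific difference 2.09, adjusted p = 0.0239). Angpt2, a ligand of the vascular receptor TIE2, had 9.63, 6.02 and 8.71 against 9.04, 7.52 and 7.79 (at least 1.64-fold higher, R848-specific difference 2.25, adjusted p = 0.0239). Both were below background in wild type after R848. In all 3 genes the genotypes were within 1 log2 unit of each other untreated and after CpG B, and the R848 arrays stood further apart.

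The lysophosphatidic acid receptor gene Lpar6 was 11.24 untreated and 7.34 after R848 in wild type, against 11.36 and 9.27 in the knockout (R848-specific difference 1.75, adjusted p = 0.0313). The transporter gene Slco4a1 was 11.13 untreated and 9.37 after R848 in wild type, against 11.03 and 11.06 in the knockout (1.67, adjusted p = 0.0426), with little difference between these knockout arrays. The kinase gene Aatk and the sorting nexin gene Snx30 (both 1.97, adjusted p = 0.0241), the endosomal GTPase gene Rab7b (1.76, adjusted p = 0.0425) and the zinc-finger gene Zfp52 (1.52, adjusted p = 0.0497) were the other named genes called in this direction. Klf2, a transcription factor that keeps macrophages quiescent, was 10.83 untreated and 8.39 after R848 in wild type, against 11.54 and 10.11 in the knockout, and was not called (R848-specific adjusted p = 0.169). The cell-cycle factor E2f2 (1.57) was called after R848 (adjusted p = 0.0281).

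Detection limits how the R848-specific calls can be read. Of the 50 genes 16 were detected on all 6 arrays, among them Dusp1, Dusp6, Map3k8, Gbp3, Cd69 and Zc3h12a. Of the 39 lower ones 11 were detected on an untreated array and 31 on a CpG B array. For the others, such as Il19, the untreated values lie in the background, where neither a genotype difference nor its spread is measured. On 1 of the R848 arrays 16 of the 50 were below background, among them Il19, Gbp5, Il27, Has1, Socs1, Cxcl9, Cnr2, Tmem86a, Angpt2 and Zfp52. Their fitted differences depend on the offset and are not bounds, and 9 of the 16 had a bound of 2-fold or more. The number of calls also moved with the processing, from 0 without a detection filter, where limma gave 1435 of 16593 genes an unadjusted p under 0.05, to 226 with median scaling, where 110 were higher and 116 lower beside 11 and 39 as reported.

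**Figure D4:**
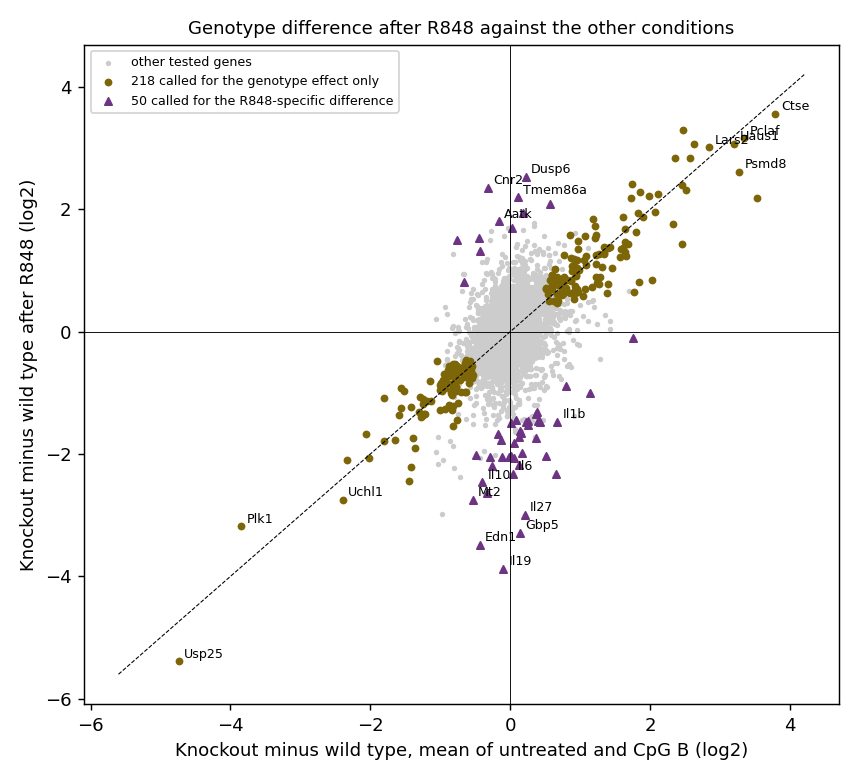
Knockout minus wild type after R848 (y axis, log2) against the mean of the same difference in untreated and CpG B cells (x axis, log2) for each tested gene. The dashed line marks equal differences. Of the 50 genes called for the R848-specific difference (purple triangles) 48, such as Il19 and Cnr2, lie within 1 unit of 0 on the x axis, Fcgr2b and Ch25h lie further right, and genes called for the genotype effect, such as Usp25 and Ctse, lie along the dashed line.

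A smaller group of genes differed in all 3 conditions, and 41 more were past 2-fold the same way after R848 and in 1 of the other conditions. Of the 146 higher genes 43 (29.5%), and of the 165 lower genes 21 (12.7%), were past 2-fold in the same direction in untreated and CpG B cells as well, 51 of the 64 also with bounds after R848. When the genotype effect was fitted on the 4 arrays without R848, 275 of 7149 genes were called, 146 higher and 129 lower. Of these 241 were tested after R848, where 222 had the same sign, 99 of them past 2-fold. Over all tested genes 4.68% were past 2-fold after R848 in either direction.

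The lowest difference after R848, also by its bound, was that of Usp25, a deubiquitinase that acts on TRAF proteins. Its levels were 9.55, 10.48 and 10.05 in wild type, against 4.98, 5.09 and 5.15 in the knockout, below background on all 3 knockout arrays, which made it at least 13.8-fold lower after R848 (genotype effect -4.96, SE 0.17, adjusted p = 0.00052). The mitotic kinase Plk1 had 11.51, 10.59 and 10.96 against 7.44, 7.41 and 7.33 (genotype effect -3.62, SE 0.18, adjusted p = 0.00094). Uchl1, a ubiquitin hydrolase, had 7.84, 8.10 and 7.91 against 5.40, 5.35 and 5.56, at least 2.66-fold lower after R848 (adjusted p = 0.000923). For each of these genes the 3 knockout arrays lay below all 3 wild-type arrays.

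Among genes higher in the knockout, cathepsin E (Ctse), an endosomal protease, had levels of 5.15, 5.17 and 5.14 in wild type, all below background, and of 8.94, 8.73 and 8.93 in the knockout, at least 3.80-fold higher after R848 (genotype effect 3.71, SE 0.10, adjusted p = 0.000449). The chemokine receptor gene Cxcr4 had differences of 2.96 untreated and 1.98 with CpG B and was at least 3.54-fold higher after R848, where it was below background in wild type (adjusted p = 0.00671). The replication factor gene Pclaf (3.16 after R848), the histidine ammonia-lyase Hal (2.83), the proteasome subunit Psmd8 (2.61), the RNA-editing deaminase Apobec1 (2.41), and the spindle gene Haus1, the mitochondrial leucyl-tRNA synthetase Lars2 and the calcium pump gene Atp2c1, at least 6.79-fold, 4.95-fold and 3.19-fold higher over a wild-type array below background, were likewise called for the genotype effect, at adjusted p between 0.000449 and 0.00508. Since Pclaf and Haus1 were higher and Plk1 was lower, while the median of 25 replication and mitosis genes was 0.26 (0.18 with bounds), the large differences in that list stood apart from its other members.

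Other probes of the same genes did not always show these differences. A gene was represented by its brightest probe, and 5 of the genes past 2-fold in all 3 conditions had another probe detected after R848. In 1 of the 5, Cd74, each other probe was also past 2-fold, and in all 5 the other probes had the same sign. H2-Ab1 differed by 1.35 at its representative probe and by 1.24, 1.05 and 0.76 at the others. The transcription factor subunit Taf6 was at least 3.51-fold higher at its representative probe and differed by 0.25 at the other, Fgfr1op2 by 2.39 and 0.01, and the G-protein subunit Gnb4 by -1.79 and -0.65. Of the genes past 2-fold after R848 and not the same way in either other condition, 38 had another detected probe. In 24 of these 38 (63.2%) every other probe was past 2-fold in the same direction, as in Dusp2 (-1.54 beside -2.04). In all 38 the other probes had the same sign.

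MHC class II genes were the list with the highest median. Of 7 tested members 4 were past 2-fold upward and none downward, with a median of 1.23 after R848, 1.62 untreated and 1.42 after CpG B. The antigen-presenting chains H2-Ab1, H2-Aa and H2-Eb1 were higher by 1.35, 1.23 and 1.36 after R848, and their invariant chain Cd74 by 1.31. The 4 genes were called for the genotype effect, at adjusted p of 0.00373 for H2-Ab1 and Cd74, 0.00879 for H2-Aa and 0.00294 for H2-Eb1, and none after R848. These genes also serve as dendritic cell markers. The other 8 dendritic cell markers, among them Flt3, Zbtb46 and Itgax, were not detected on the R848 arrays. Over the neutrophil markers, 7 of 9 on the array were detected, and their summed normalized level after R848 was 18610 in wild type and 12966 in the knockout. The fit of the genotype effect called 4 of the 7 as lower. Among these were Ltf (-1.38), S100a9 (-0.79) and Camp (-0.56), at adjusted p of 0.00373, 0.0133 and 0.0364. Ngp and S100a8 had differences of -0.57 and -0.54, Mpo had 0.71 and Elane 0.07 after R848. The part of such cells in the differences above was not tested.

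Of the 9 macrophage markers on the array 7 were detected after R848 in both genotypes, Adgre1, Lyz2, Itgam, Fcgr1, Cd14, Mrc1 and Spi1, with sums of 79468 in wild type and 78421 in the knockout after R848. The brightest members weigh most in these sums, and within the list the Fc receptor gene Fcgr1 was lower by 2-fold or more (-1.20, not called after R848). No T, NK, erythroid, mast or stromal cell marker was detected on either array, and of the B cell markers only Cd79b was. The megakaryocyte markers Pf4 and Ppbp were detected on both arrays, with list sums of 13478 in wild type and 18073 in the knockout and differences of 0.43 and 0.12 after R848, 0.70 and 1.49 untreated. In bulk RNA, fewer cells of a type and less RNA per cell cannot be told apart. Lists that serve as a contrast differed little, with 0 of 12 cholesterol synthesis genes (median -0.03) and 0 of 7 reference genes (median 0.10) past 2-fold in either direction, and of 10 immediate early factors Klf2 alone (median 0.03). The reference median was -0.13 with median scaling. These lists rest on the brightest probe of each gene. Of the detected Actb probes, the brightest differed by -0.21 after R848 and another by 0.09. The remaining Actb probe differed by 3.26. Its levels were 11.26, 10.79 and 9.69 in wild type (untreated, R848, CpG B), against 14.68, 14.05 and 12.85 in the knockout.

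By chromosome, the share of tested genes past 2-fold after R848 was highest on chromosome 9, with 31 of 374 genes (8.29%), 21 higher and 10 lower, and ran from 2.38% to 6.61% on the others with at least 100 tested genes. On chromosome 9, 14 genes differed by 2-fold or more in all 3 conditions, among them Pclaf, Lars2, Atp2c1, Il18, Ltf and the DNA-damage kinase Atm (at least 1.68-fold higher after R848). Irak2 lies on chromosome 6, where 22 of 333 genes (6.61%) were past 2-fold. The strain is given as 129/BL6 for both genotypes, and differences of background between them were not tested.

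**Figure D5:**
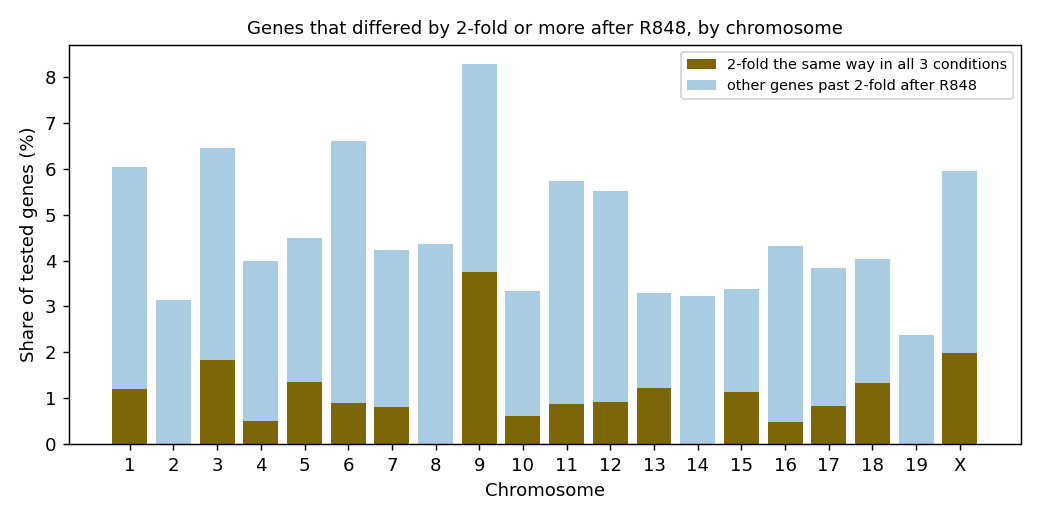
Share of tested genes (%, y axis) that differed by 2-fold or more after R848 on each chromosome (x axis), split into genes past 2-fold the same way in all 3 conditions (brown) and the others (blue). Chromosome 9 has the tallest bar (8.29%) and the tallest brown part.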

How the data were processed

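RNA of 6 groups of bone marrow-derived macrophages, grouped by the genotype and agent in the labels, was hybridised to 6 Illumina mouseRef-8 v2 arrays of 25697 probes. The authors deposited probe intensity values without normalization between arrays, for which the submitters' processing notes name BeadStudio without a version. Per the file headers each deposited intensity has its detection p-value. Array medians were 20.6 to 27.7 intensity units, and 34.9% to 37.8% of probes were detected. Between 33.4% and 34.4% of the intensities were below 0, so background had been subtracted before deposit, as read from the values. The authors also deposited processed intensity values, which are linear and quantile normalized: 99.7% to 99.8% of those of the stimulated samples lay within 0.5 units of the normalized array, against 6.10% and 6.27% for the untreated ones. The untreated columns were taken as means of 2 arrays, and the second array of each genotype was recovered from them. The sources used here do not say whether it came from another culture.

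Here, limma 3.58.1 in R 4.3.3 corrected the background by normexp from the detection p-values, added an offset of 16, applied quantile normalization and took log2. Probes were named through the platform annotation (1719 were unnamed), with the brightest probe representing a gene. Counts past 2-fold use the plain difference between the normalized log2 values of the knockout and wild-type arrays. The fold of a named gene below background on 1 R848 array is given as a bound. This bound is the bright array's value over either the dim array's lowest detected value or the gene's own there, whichever is higher. The single-array comparison has no test. The limma fits with empirical Bayes moderation were the additive genotype effect (6 arrays, 2 residual degrees of freedom), the R848-specific difference (6 arrays, 1) and the group means with the recovered arrays (8 arrays, 2), in which single arrays are assumed to vary like the untreated pairs. The fit with the recovered arrays used intensities quantile normalized to the scale of the processed values, with the offset and without normexp. Its estimate for Cnr2 after R848 was 2.75, beside a difference of 2.35 from the normexp values. The fits were tested on simulated data. Alternatives were other background, scaling, offset, probe and detection rules, left-out conditions and a higher fold.

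The genes and lists were chosen with earlier results of these data known. Named genes were up to 15 with the largest difference in each direction, up to 10 with the smallest adjusted p of each fit and direction, members of the lists, Irak2 and the genes next to the detection threshold. Vhl, Vgll4, Plxnd1 and the comparison of other probes were chosen after their values were seen. RefSeq tables of GRCm38.p6 served for symbols, gene order and promoters, since no build is named for the arrays. Il27 had no promoter entry.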

Additional observations from a re-analysis of the deposited data

Results flagged for a closer look

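Among the named genes and list members, 39 differed more, or less, between the genotypes after R848 than in the other conditions by the limma test of that difference. The values are knockout minus wild type after R848 minus the mean of the same difference in untreated and CpG B cells, on the log2 scale. Cytokines and chemokines lower by this measure were Il19 (-3.78), Il27 (-3.2), Il6 (-2.36), Il1b (-2.15), Il10 (-2.07) and Cxcl9 (-1.63). Feedback regulators and signalling genes lower by this measure were Cish (-2.98), Dusp2 (-2.55), Map3k8 (-1.87), Socs1 (-1.78), Dusp1 (-1.75), Socs3 (-1.68), Gadd45b (-1.54) and Zc3h12a (-1.5). Interferon-related genes and the transcription factor Batf2 lower by this measure were Gbp5 (-3.42), Batf2 (-1.94), Gbp3 (-1.87) and Isg20 (-1.49). Effector, metal-binding and complement genes lower by this measure were Edn1 (-3.05), Cfb (-2.29), Mt2 (-2.21), Ch25h (-2.15) and Cp (-2.15). The remaining genes lower by this measure were Calhm6 (-2.31), Mycl (-2.13), Has1 (-2.1), Shisa3 (-2.03), Cd69 (-1.91) and Fcgr2b (-1.85), an inhibitory Fc receptor named after its values were seen. Fcgr2b itself differed little after R848 (-0.10) and was higher in the knockout untreated (1.95) and after CpG B (1.54). The higher genes were Cnr2 (2.67), Dusp6 (2.31), Angpt2 (2.25), Tmem86a (2.09), Aatk (1.97), Snx30 (1.97), Rab7b (1.76), Lpar6 (1.75), Slco4a1 (1.67) and Zfp52 (1.52).

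The test has 1 residual degree of freedom and rests on 1 R848 array per genotype. Batf2, Calhm6 and Il19 are examples of genes for which at least 1 array lay in the background, while Dusp1, Dusp6 and Map3k8 were detected on all 6. Over all genes the 50 calls were 0.699% of those tested. With untreated cells as the only reference, all 50 kept their sign and were past 2-fold. The untreated difference is part of the reference on which these genes were called, so this is no independent check.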

How the results depend on the processing

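The count of 311 genes past 2-fold after R848 ranged from 218 to 337 over the other background, scaling, offset, probe and detection rules and was 106 at a log2 difference of at least 1.5, with 47 higher and 59 lower. The share not past 2-fold the same way in either other condition ranged from 59.4% to 67.9%. The R848-specific count of 50 was 146 without background correction, 226 with median scaling (110 higher and 116 lower), 143 with an offset of 50, 100 with the mean of a gene's probes, 21 among genes detected on all arrays, 75 in the processed values and 0 without a detection filter. Of the 50 genes, all were called in the first 4 of these, 45 in the processed values and 16 of 16 testable among genes detected on all arrays. The genotype effect of 243 genes was 141 without a detection filter, 9 when both untreated arrays were left out and 88 when both CpG B arrays were, and with median scaling 97 of 242 were higher beside 126 of 243. The calls after R848, 232, were 470 without a detection filter and 369 among genes detected on both untreated arrays (220 higher). The cause of these changes was not tested, except that fewer genes or arrays entered some fits. The glycolysis list median of 0.23 was -0.026 with median scaling, which gave the reference list -0.13. Of 1105 values of 221 named genes under 5 alternatives, 0 changed sign from a difference past 2-fold and 132 moved by more than the standard error. No paired analysis was possible because the labels carry no replicate numbers and each group has 1 array, so no replicate could be left out either.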

Other observations

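At the edge of the detection rule, BC005624 (detection p 0.00877 in wild type and 0.0238 in the knockout after R848) and Ciao1 (0.00877 and 0.0138) were just inside, with log2 differences of -0.45 and -0.34. Acvr2b (0.0113 and 0.01003) and Alkbh4 (0.0163 and 0.01003) were just outside, with -0.05 and 0.09.

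Among gene groups not described above, the 15 tested genes of oxidative and metal stress had a median of 0.05, with Mt2 lower and the stress-response factor Atf4 higher by 2-fold or more. Atf4 was higher in the knockout by 1.58 untreated, 1.47 after R848 and 1.69 after CpG B and was called for the genotype effect by limma (adjusted p = 0.00212). Of 10 glycolysis and hypoxia genes the pyruvate kinase Pkm (1.06, adjusted p = 0.0133 for the genotype effect) was the 1 past 2-fold. The polyamine enzyme Odc1 was higher by 0.96, 1.36 and 1.83 in untreated, R848 and CpG B cells (adjusted p = 0.0196).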
